A study of Mus musculus with 30 samples.

Results

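The 6 livers compared here came from male mice of 1 strain, written C57BL16 in the labels, sampled 30 days (month 1) after exposure. In 3 mice the exposure was 0.2 Gy of 56Fe ions at 600 MeV/n, and the 3 controls were not irradiated. The libraries were picked by these labels alone, as 6 of the 30 libraries of the series, which also covers months 2, 4, 9 and 12 with 3 livers per arm. No transgene or other treatment is named, and neither the age of the mice nor the hour at which livers were taken is given in the sources used here. RNA came from slices of the frozen left lobe, ribosomal RNA was depleted, and reads were counted per gene, so each library is an average over all cell types of the slice. In such bulk RNA, fewer cells of a type and less RNA per cell cannot be told apart.

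High-energy iron ions are a component of galactic cosmic radiation and deposit their energy densely along a track. The liver answers stress through p53 targets, glucocorticoid-responsive genes and acute phase proteins. Much of its metabolism also runs on a daily rhythm: the activators BMAL1 (encoded by Arntl) and CLOCK or NPAS2 bind E-box motifs and drive the Per, Cry, Rev-erb and Dec repressor genes and output factors such as DBP, TEF and HLF, which in turn bind D-box motifs. In each cycle the activator genes and their targets therefore reach their highest levels at different hours.

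The library totals at month 1 ran from 7995248 to 12844872 counts. Of 51826 gene identifiers, 19685 had enough counts to be tested. Between irradiated and control livers 906 genes differed (edgeR, Benjamini-Hochberg adjusted p under 0.05, here called passing), which is 4.60% of those tested. Irradiation went with higher levels of 294 genes (1.49%) and lower levels of 612 (3.11%). The median difference was 2.08-fold among the higher genes and 1.58-fold among the lower ones, and 278 genes differed at least 2-fold. For 781 of the 906 genes the 3 libraries of one arm lay wholly beyond the other 3, which was so for 18.6% of all genes tested. Without adjustment, 3317 genes (16.9%) had a p under 0.05, the share against which such counts in the lists below are to be read. Counts of list members that passed are likewise to be read against 4.60%, or 1.49% higher and 3.11% lower. The balance of directions moved with the scaling: with upper quartile in place of TMM factors 411 genes were higher and 307 lower, and with TMM factors computed without ribosomal RNA features 313 and 415. The counts also moved with single livers. Without control replicate 3 the count was 1874, of which 299 were higher, and without control replicates 1 and 2 it was 324 and 249. Without irradiated replicates 1, 2 and 3 it was 341, 591 and 287.

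Among the 906 genes, control replicate 3 was the control closest to the irradiated mean for 582, against 178 for replicate 1 and 146 for replicate 2. Irradiated replicate 2 was the irradiated liver closest to the control mean for 509. The first principal component of the 6 libraries, with 34.2% of the variance, put irradiated replicate 3 at 65.30 and control replicate 2 at -43.45, with the other 4 livers between -27.66 and 10.03. All 3 controls lay below 0 on it and all 3 irradiated livers above.

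Clock genes that passed differed mostly, but not all, in the same direction within each role. Of 8 activators and genes of the opposite phase, 3 rose and 1 fell. Of 9 repressors 5 fell and 0 rose, and of 12 output genes 7 fell and 1 rose. The median log2 fold changes were 0.91, -1.27 and -1.79, against -0.03 over all genes tested. Leaving out any 1 library left 4 activators and 8 output genes passing, while the repressor count fell to 3 without control replicate 2.

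Among the activators, Arntl stood at 25.7, 25.5 and 38.5 CPM (counts divided by the TMM-scaled library size, on a common scale) in irradiated livers and at 2.27, 1.91 and 2.44 CPM in controls. The arms were far apart, with a 13.5-fold difference (log2 fold change 3.75 ± 0.42 SE, adjusted p = 1.56e-05). Npas2, which encodes a partner of BMAL1, was at 6.13, 6.20 and 5.88 CPM against 0.20, 1.00 and 0.85 CPM (log2 fold change 3.21 ± 0.46, adjusted p = 7.31e-05). Clock, the other partner, rose 2.06-fold from 56.3, 54.4 and 47.2 to 107, 119 and 98.8 CPM. The arms did not overlap for any of the 3 genes. The bZIP repressor gene Nfil3 (log2 fold change 1.72) and Cry1 (0.77), which reach their peak late, missed the threshold with adjusted p-values of 0.054 and 0.0545.

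The repressor Per3 was at 16.4, 17.3 and 14.3 CPM in irradiated livers and at 142, 147 and 159 CPM in controls (log2 fold change -3.22 ± 0.54, adjusted p = 0.00145). Ciart, a repressor of the activator pair, was at 3.28, 1.57 and 2.31 against 17.4, 19 and 19.2 CPM. Bhlhe41 (DEC2) was at 1.42, 0.82 and 1.06 against 8.67, 6.54 and 6.11 CPM. In each of these 3 genes every irradiated liver lay below every control. Nr1d2 and Bhlhe40, coding for REV-ERB beta and DEC1, fell by 1.12 and 1.27 on the log2 scale. Nr1d1, coding for REV-ERB alpha, showed no such shift: its irradiated livers at 71.5, 68.7 and 48.8 CPM overlapped the controls at 59.6, 61.1 and 53.7 CPM (log2 fold change 0.12, adjusted p = 0.914). Per2 (log2 fold change -1.48), Per1 (-0.97) and Cry2 (-0.62) did not pass, although their arms did not overlap. Ciart did not pass without control replicate 1 or 2 or without any 1 irradiated library, and Bhlhe40 did not without control replicate 2.

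Among output genes, the D-box factor Dbp was at 17, 14 and 5.78 CPM in irradiated livers and at 125, 120 and 138 CPM in controls. Its paralog Tef was at 92.1, 89.5 and 75.4 against 292, 299 and 336 CPM (log2 fold change -1.85 ± 0.26, adjusted p = 7.67e-05), whereas Hlf, the remaining member of the family, had a log2 fold change of -0.55 (adjusted p = 0.308). Wee1, a kinase that holds back entry into mitosis, fell from 17.3, 18.4 and 16.3 to 1.95, 0.97 and 0.48 CPM, a 15.1-fold difference. The ubiquitin protease gene Usp2 fell from 55.2, 58.7 and 45.5 to 4.79, 5.38 and 4.43 CPM. For Dbp, Tef, Wee1 and Usp2 the gap between the arms was wider than the spread within either. Nampt, the rate-limiting enzyme of NAD salvage, was at 21.3, 25.8 and 21.8 against 112, 60.1 and 55.3 CPM, with the highest control set apart from the other 2. Coq10b, a coenzyme Q binding protein gene, had the smallest adjusted p of these lists (7.37, 10.4 and 11.4 against 54.7, 45.9 and 38.2 CPM; log2 fold change -2.25 ± 0.23, adjusted p = 3.5e-06). Leo1, a subunit of the PAF1 transcription elongation complex, was the output gene that rose, from 8.67, 12.4 and 8.74 to 17.8, 18.8 and 22.3 CPM.

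Promoters are shown for some of these genes that passed and hold an E-box or a D-box. Binding of clock factors to these motifs was not tested. The windows are the upstream part of RefSeq promoters on GRCm38.p6, read 5′ to 3′ on the strand of the gene, with capitals for the E-box CACGTG and the D-box TTATGTAA on either strand (read as TTACATAA on the reverse one). Coq10b (chr1:55052520-55052769, plus strand) holds 1 of each, Tef (chr15:81802423-81802672, plus strand) and Bhlhe41 (chr6:145865421-145865670, minus strand) hold 1 E-box, and Per3 (chr4:151044666-151044915, minus strand) holds 2 D-boxes.
Coq10b: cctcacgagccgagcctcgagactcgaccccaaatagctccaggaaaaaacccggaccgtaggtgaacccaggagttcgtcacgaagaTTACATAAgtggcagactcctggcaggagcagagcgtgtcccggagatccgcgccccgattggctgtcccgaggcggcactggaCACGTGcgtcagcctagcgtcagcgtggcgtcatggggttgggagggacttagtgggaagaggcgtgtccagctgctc
Tef: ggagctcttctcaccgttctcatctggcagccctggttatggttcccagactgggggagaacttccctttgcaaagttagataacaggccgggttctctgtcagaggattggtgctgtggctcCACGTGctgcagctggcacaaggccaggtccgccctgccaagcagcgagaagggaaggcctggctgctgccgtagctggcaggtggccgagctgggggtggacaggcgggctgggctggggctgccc
Bhlhe41: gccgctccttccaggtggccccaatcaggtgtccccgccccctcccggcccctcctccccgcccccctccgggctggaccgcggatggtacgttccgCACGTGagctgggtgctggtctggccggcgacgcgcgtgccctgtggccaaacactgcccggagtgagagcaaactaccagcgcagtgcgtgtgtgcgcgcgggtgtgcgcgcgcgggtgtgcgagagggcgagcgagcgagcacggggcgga
Per3: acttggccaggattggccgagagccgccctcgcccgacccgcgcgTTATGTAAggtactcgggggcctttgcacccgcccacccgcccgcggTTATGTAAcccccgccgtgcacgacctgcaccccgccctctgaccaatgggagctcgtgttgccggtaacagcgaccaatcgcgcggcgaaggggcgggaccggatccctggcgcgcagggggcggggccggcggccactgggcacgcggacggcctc

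Measured from the start site, the E-box runs from -78 to -73 in Coq10b, from -127 to -122 in Tef and from -153 to -148 in Bhlhe41. The D-boxes of Per3 run from -205 to -198 and from -158 to -151. An E-box was found in 8 of 25 clock-list genes with a promoter in the table (32%) and in 9.12% of the 12735 tested genes that had one. Not all clock-list genes with an E-box passed, and Cry1 and Per1 did not. Dbp, Usp2, Por, Nr1d2 and Nampt fell with neither motif in the window. Over the genes tested, the E-box shares by direction were as follows. The E-box was present for 71 of 470 genes that fell (15.1%) and 16 of 172 that rose (9.3%). The D-box was found for 8 of the genes that fell (1.7%) and 0 of those that rose, against 0.707% of tested genes. Over all 32851 promoters of the table the shares were 6.02% and 0.819%. A match describes letters in this window only.

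The month 1 effect was set against that of later months. The effect at month 1 was tested against the mean effect of months 2, 4, 9 and 12, and 384 genes passed (1.95% of those tested), of which 317 also passed at month 1. Both tests contain the month 1 effect, so this overlap is in part built in. For Arntl the control mean was 2.21 CPM at month 1 and 13.1, 13.6, 12.8 and 10.4 CPM at months 2, 4, 9 and 12, while the irradiated mean was 29.9 CPM at month 1 and 22, 15.6, 13 and 9.76 CPM later. For Wee1 the control mean was 17.4 CPM at month 1 and 2.83 to 6.87 CPM at the later months. Clock had a control mean of 52.6 CPM at month 1 and 106 to 139 CPM in the other groups of the series, both arms. Over the 906 genes, the 3 month 1 controls lay beyond all other 27 libraries for 147 genes, and the 3 month 1 irradiated livers did so for 174. Over all genes tested these numbers were 439 (2.23%) and 501 (2.55%). Coq10b and Nampt were in the second class, with irradiated livers below the other 27 libraries.

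Corticosteroid-related genes differed in both directions. Of 26 receptors and glucocorticoid-induced genes 4 rose and 3 fell (median log2 fold change 0.48). Zbtb16, a transcription factor induced by glucocorticoids, was at 74.0, 98.8 and 165 CPM in irradiated livers and at 13.7, 18.2 and 23.2 CPM in controls (log2 fold change 2.62 ± 0.43, adjusted p = 0.00113). Tsc22d3, which encodes the mediator GILZ, was at 87.3, 102 and 118 against 37.1, 46.0 and 51.1 CPM (adjusted p = 0.02), and the phosphatase gene Dusp1 at 13.5, 13.2 and 19.3 against 8.07, 5.81 and 6.49 CPM (adjusted p = 0.0433). All 3 genes had every irradiated liver above every control. Their control means at month 1 were low within the series. They were 18.4 CPM for Zbtb16 against 34.0 to 156.5 CPM in controls of the other months, and 44.7 CPM for Tsc22d3 against 125 to 262 CPM. For Dusp1 the control mean was 6.79 CPM against 12.4 to 25.6 CPM. The mineralocorticoid receptor gene Nr3c2 fell from 59.2, 56.1 and 62.9 to 32.4, 31.8 and 26.8 CPM (log2 fold change -0.97 ± 0.12, adjusted p = 2.1e-05). Its control mean of 59.4 CPM lay above the control means of 27.0 to 36.7 CPM at the other months. Hsd11b1, which regenerates active glucocorticoid, and the glucocorticoid receptor gene Nr3c1 fell by 0.63 and 0.46 on the log2 scale, with overlapping arms for Nr3c1. Serpina6, which encodes the corticosteroid carrier of plasma, fell from 136, 172 and 170 to 77.3, 66.7 and 75.1 CPM. Nr3c2 passed whichever library was left out. Zbtb16 did as well, but Tsc22d3 did not without control replicate 1, control replicate 2 or irradiated replicate 3, Serpina6 did not without control replicate 2 or irradiated replicate 2, and Dusp1 lost the call whichever library was left out. The list count of 7 was 3 without control replicate 1 or 2.

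The p53 targets passed at a share of 6.67%, against 4.60% of all genes tested, and no DNA repair gene passed. Cdkn1a encodes the cell cycle inhibitor p21, is induced by p53 and by glucocorticoids, and was counted in both lists. It was at 4.79, 4.26 and 8.48 CPM in irradiated livers and at 0.27, 0.64 and 0.47 CPM in controls (log2 fold change 3.69 ± 0.69, adjusted p = 0.00297). Every irradiated liver lay above every control, and the control mean of 0.458 CPM was below the control means of 1.65 to 13.7 CPM at the other months. Of 30 p53 targets, Cdkn1a rose and Ccnd1, which encodes cyclin D1, fell. Mdm2, the p53 ubiquitin ligase gene, was at 45.8, 46.0 and 50.1 against 48.1, 37.8 and 43.9 CPM, with overlapping arms (adjusted p = 0.693). The death receptor gene Eda2r and Phlda3 were near 1 CPM or below and had adjusted p-values of 0.906 and 0.938. Of 47 DNA repair genes 0 passed, 7 had an unadjusted p under 0.05, and 3 passed each with DESeq2 and with limma voom. Their median log2 fold change was -0.045, with a range of -0.055 to 0.075 over all settings, so its sign was not fixed. Without control replicate 3, 2 of them passed. The kinase gene Atr had the smallest p of that list (log2 fold change -0.43, adjusted p = 0.0545).

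Of 34 cell cycle genes, Ccnd1 and Ccne1 (cyclin E1) fell and 0 rose. This share of 5.88% was near the 4.60% of all genes tested, and the list median was -0.065. Ccnd1 was at 8.61, 8.96 and 8.58 CPM in irradiated livers and at 30.7, 26.3 and 13.9 CPM in controls (log2 fold change -1.44 ± 0.37, adjusted p = 0.0245). Ccne1 was at 1.15, 0.82 and 0.29 against 3.00, 2.73 and 2.16 CPM. The arms did not overlap for either gene. Both lost the call without control replicate 1, control replicate 2 or any 1 irradiated library.

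Bile acid and haem pathways held some of the largest decreases. Cyp7a1, which catalyses the first and limiting step from cholesterol to bile acids, was at 46.2, 47.3 and 20.5 CPM in irradiated livers and at 270, 567 and 353 CPM in controls (log2 fold change -3.38 ± 0.64, adjusted p = 0.00415). Of 29 bile acid genes 5 fell and 2 rose, with a median of -0.41. Akr1d1, a steroid ring reductase of the pathway, fell from 115, 139 and 97.4 to 61.7, 73.5 and 42.5 CPM, and Nr1h4, which encodes the bile acid receptor FXR, from 148, 179 and 156 to 94.8, 94.3 and 119 CPM. The arms were separate for all 3 genes. Nr0b2, which encodes SHP, a repressor of Cyp7a1, rose from 11.4, 16.6 and 21.7 to 49.4, 47.6 and 35.9 CPM (log2 fold change 1.43 ± 0.41, adjusted p = 0.0461). Acox2, a peroxisomal oxidase that shortens the bile acid side chain, rose from 129, 143 and 98.1 to 162, 207 and 160 CPM. The 7 calls of this list became 2 without control replicate 1, control replicate 2 or irradiated replicate 1, and 3 without irradiated replicate 3. Cyp7a1 passed each time, while Akr1d1 did not without control replicate 2 or irradiated replicates 1 or 3. Nr1h4 did not pass with upper quartile factors, without control replicates 1 or 2 or without irradiated replicates 1 or 2. Acox2 did not without control replicates 1 or 3 or irradiated replicate 2.

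Alas1, which makes the first haem precursor, fell from 1064, 716 and 933 CPM in controls to 73.1, 110 and 202 CPM (log2 fold change -2.82 ± 0.48, adjusted p = 0.00148). Por, which passes electrons to all microsomal cytochromes P450, fell from 375, 420 and 331 to 136, 136 and 169 CPM (adjusted p = 4.01e-05), and Cyp2a5 from 452, 678 and 496 to 142, 169 and 60.7 CPM. Every irradiated liver lay below every control for the 3 genes, and they passed whichever library was left out. Reads of Cyp2a5 may be shared with near-identical neighbours. These were the 3 genes that fell of 34 P450 and haem genes, with 0 that rose and a median of -0.28, and the count was 6 without control replicate 3. The abundant cytochrome gene Cyp3a11 was at 2442, 2968 and 876 against 3454, 4173 and 3293 CPM without passing (adjusted p = 0.171).

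Conjugation enzymes, which attach glucuronide, sulphate or glutathione, included 9 genes that fell and 0 that rose of 45 (median -0.56). Papss2, which makes the sulphate donor, fell from 199, 225 and 129 to 101, 101 and 89.3 CPM (adjusted p = 0.00135). Gstt2, a glutathione transferase, was at 40.6, 39.9 and 27.6 against 85.9, 90.5 and 96.0 CPM, and the sulphotransferase Sult1d1 at 40.0, 70.7 and 27.4 against 99.8, 121 and 85.3 CPM. No irradiated liver reached the lowest control in these genes. Ugt1a8 was at 0.53, 0.60 and 0.58 against 7.80, 6.54 and 5.64 CPM, but it is not in that list and its exons are shared with the other Ugt1a genes. Its control mean of 6.66 CPM at month 1 stood against means of 0.12 to 0.98 CPM in all other groups of the series, both arms. The count of 9 was 1 without control replicate 2, irradiated replicate 1 or irradiated replicate 3, 3 without control replicate 1, and 20 without control replicate 3. Papss2 passed in each case, whereas Gstt2 and Sult1d1 did not without control replicate 2 or irradiated replicates 1 or 3, nor Gstt2 without irradiated replicate 2. Of 24 NRF2 antioxidant genes 0 passed, 7 had an unadjusted p under 0.05, and DESeq2 and limma voom called 1 and 6. The count was 8 without control replicate 3.

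Some genes of fatty acid oxidation fell. Of 44 PPAR-alpha targets and oxidation genes 9 fell and 0 rose, 41 had a log2 fold change below 0, and the median was -0.63. Cpt1a, which controls the entry of fatty acids into mitochondria, was at 215, 236 and 215 CPM in irradiated livers and at 519, 484 and 324 CPM in controls (log2 fold change -0.99 ± 0.17, adjusted p = 0.000919). Decr2, a peroxisomal reductase for unsaturated chains, was at 81.8, 95.2 and 56.4 against 198, 199 and 104 CPM, and the acyl-CoA thioesterase Acot4 at 16.7, 14.3 and 11.4 against 45.7, 91.2 and 32.2 CPM. In all 3 genes control replicate 3 was the lowest control and still lay above the irradiated livers. For Slc27a2, Hadha and Acadl, which also fell, the arms overlapped. The count of 9 was 1 without control replicate 2, 3 without control replicate 1 and 19 without control replicate 3. It was 2 without irradiated replicates 1 or 3, and 6 without irradiated replicate 2. With upper quartile factors 3 passed, and after adjustment for the Gm26917 level 0 did, with a median of -0.27. With 1 library left out Cpt1a passed in every case, Decr2 in all but that without control replicate 2, and Acot4 only without control replicates 1 or 3.

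Lipid synthesis genes moved both ways, with 2 of 33 that rose and 5 that fell (median -0.46). Elovl3, an elongase of very long chain fatty acids, rose from 34.9, 66.7 and 47.7 to 359, 678 and 208 CPM (log2 fold change 3.06 ± 0.48, adjusted p = 0.000613). Its control mean of 49.7 CPM lay below those of the other months, 145 to 367 CPM. Pitx3, at 14, 25.9 and 18 against 0.73, 1.00 and 1.69 CPM, lies tail to tail with Elovl3 on the opposite strand, and 10 of its 1526 exonic bases are shared with it. Fads1 and Fads2, the desaturases of polyunsaturated fatty acids, fell by 0.72 and 1.09 on the log2 scale, and Pnpla2, the triglyceride lipase ATGL, fell by 0.81. Pnpla2 passed whichever library was left out, and both Fads genes lost the call without control replicates 1 or 2 or irradiated replicates 1 or 3. Fads2 was at 134, 142 and 107 against 293, 310 and 215 CPM. Chka, which encodes choline kinase for phosphatidylcholine synthesis, rose from 27.9, 25.4 and 36.4 to 151, 127 and 188 CPM, with no overlap (adjusted p = 0.000111). The count of 7 was 2 without control replicate 2 or irradiated replicate 3, and 3 without control replicate 1 or irradiated replicate 1. Of 26 cholesterol synthesis genes Stard4, a sterol carrier, fell and 0 rose, a call lost without control replicate 2 or irradiated replicate 3.

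Glycogen genes showed opposite changes. Gys2, the liver glycogen synthase, fell from 326, 362 and 246 to 96.9, 117 and 58.1 CPM (log2 fold change -1.78 ± 0.22, adjusted p = 1.45e-05). Ppp1r3b, the glycogen-targeting subunit of protein phosphatase 1, rose from 38.9, 58.1 and 53.6 to 175, 210 and 184 CPM (log2 fold change 1.92 ± 0.43, adjusted p = 0.0123). The arms were far apart for both. The control mean of Ppp1r3b was 50.2 CPM at month 1 and 381 to 468 CPM at the other months. Slc2a2, the glucose transporter GLUT2, fell from 503, 617 and 404 to 238, 264 and 98.7 CPM, and Slc37a4, the glucose 6-phosphate transporter, from 138, 162 and 129 to 80.1, 92.0 and 75.8 CPM. Of 35 gluconeogenesis and fasting genes 4 fell and 1 rose, with a median of -0.27. Gys2 passed whichever library was left out, while Ppp1r3b did not without control replicate 1 or 2. Slc2a2 and Slc37a4 did not without control replicate 2 or irradiated replicate 3, nor Slc37a4 without irradiated replicate 1, and the list count of 5 was 1 without control replicate 2, 2 without irradiated replicate 3, 3 without control replicate 1 or irradiated replicate 1, and 9 without control replicate 3.

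**Figure D1:**
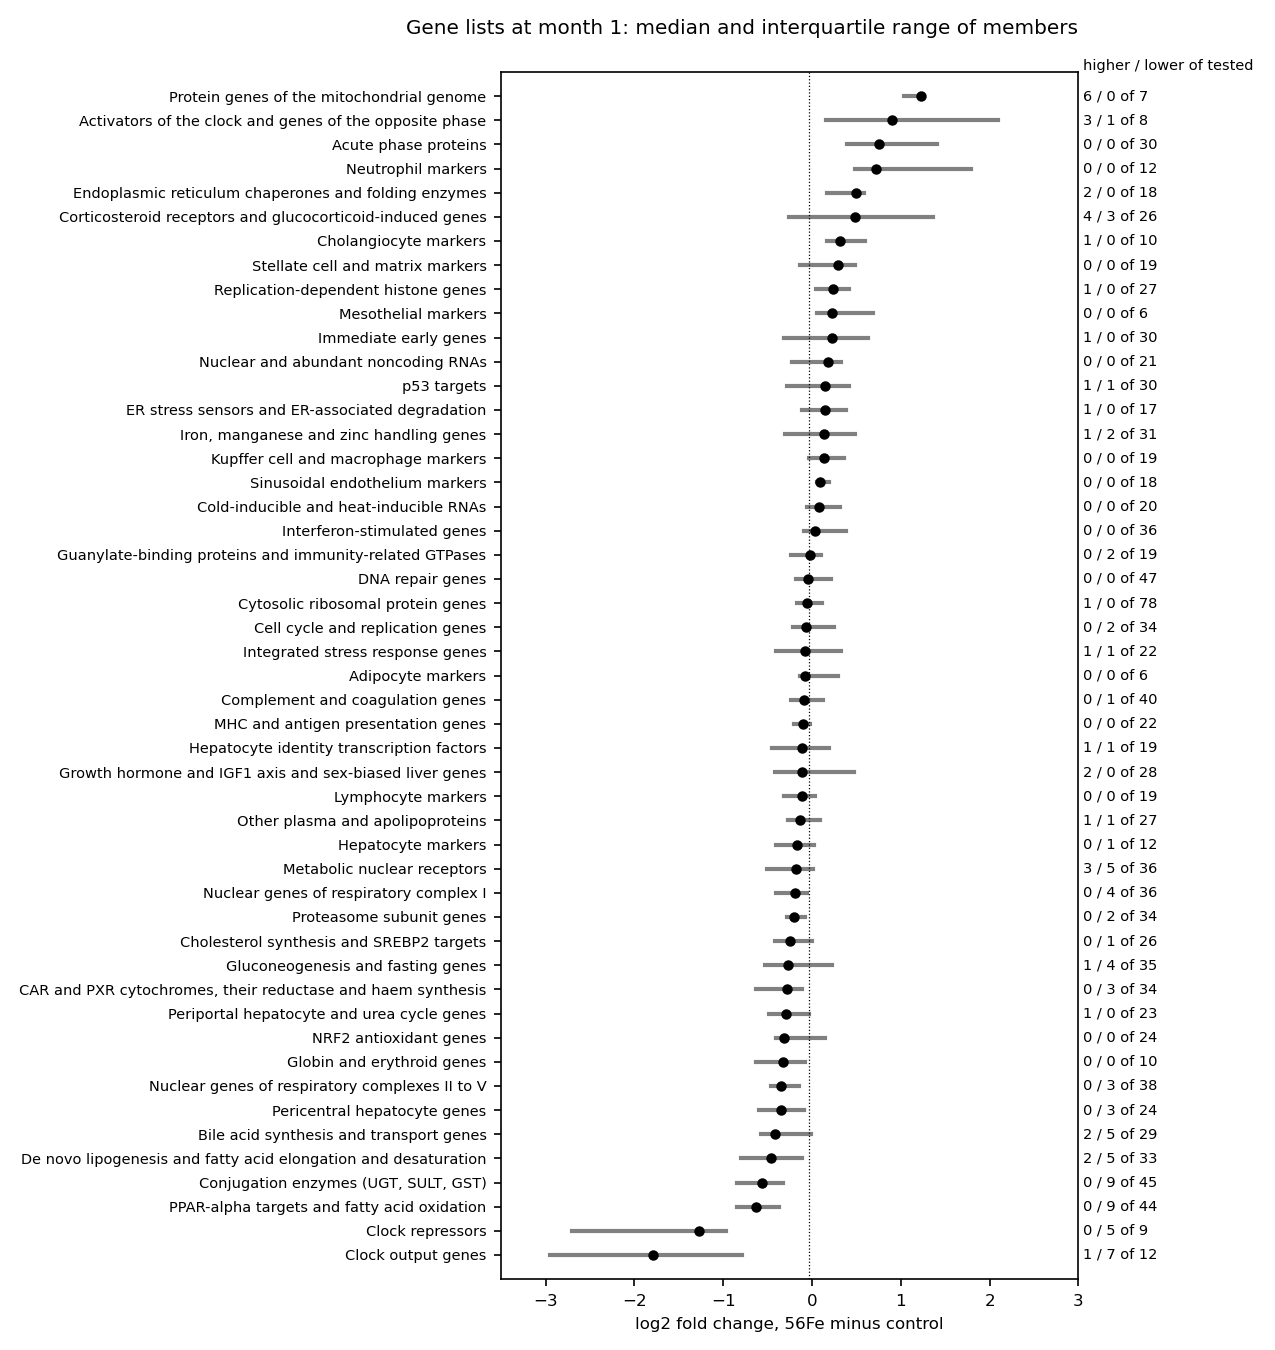
Median log2 fold change (point) and interquartile range (bar) of the tested members of each gene list with at least 5 tested members, 56Fe minus control at month 1; numbers at the right give members that were higher and lower of those tested, and the dotted line is the median of all genes. The clock repressor and output lists lie lowest at -1.27 and -1.79, and the mitochondrial genome list lies highest at 1.23.

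Chaperones of the endoplasmic reticulum (ER) were higher in most members, and 11.1% passed, against 4.60% of all genes tested. Of 18 genes 2 rose, 8 had an unadjusted p under 0.05, and in 9 every irradiated liver lay above every control (median 0.49). Calr (calreticulin), which binds calcium and nascent glycoproteins, was at 638, 706 and 773 CPM in irradiated livers and at 418, 502 and 387 CPM in controls (log2 fold change 0.70 ± 0.19, adjusted p = 0.0279). Ppib, a prolyl isomerase, was at 46.9, 53 and 54.9 against 38.3, 34.4 and 27.8 CPM. The main chaperone gene Hspa5 was at 765, 875 and 815 against 578, 587 and 528 CPM without passing (adjusted p = 0.183). Derl3, a channel component of ER-associated degradation, rose from 2.00, 1.45 and 2.26 to 5.86, 7.77 and 20.6 CPM (adjusted p = 0.0313), with irradiated replicate 3 well above the other 2. Atf5, a transcription factor of the integrated stress response, rose from 41.8, 32.2 and 21.5 to 62.1, 59.0 and 65.9 CPM (log2 fold change 0.97 ± 0.17, adjusted p = 0.000919). Ppp1r15b, which restores translation by dephosphorylating eIF2 alpha, fell by 0.70 with overlapping arms, and lost the call without control replicates 1 or 2 or irradiated replicates 1 or 3. The control means at month 1 were low within the series: 435 CPM for Calr against 797 to 1196 CPM at the other months, and 31.8 CPM for Atf5 against 67.3 to 118 CPM. Atf5 passed whichever library was left out. Without control replicate 3, or without irradiated replicate 3, 0 ER chaperone genes passed, and without control replicates 1 and 2 in turn 1 did. Derl3 did not pass without control replicates 1 or 2 or irradiated replicate 3.

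The ER stress element, CCAAT and CCACG spaced by 9 bases, on either strand, stood in 9 of 29 ER-list genes with a promoter (31%), in 3 of 172 genes that rose (1.74%) and in 0 of 470 that fell. It was present for 0.181% of tested genes and in 0.113% of all promoters. Calr (chr8:84846932-84847181, minus strand) and Derl3 (chr10:75893148-75893397, plus strand) are shown as members that rose and hold it, in capitals and here on the reverse strand. They were the only ER-list genes with the element that passed, and other holders, such as Hspa5, did not. The element runs from -162 to -144 in Calr and from -156 to -138 in Derl3. Each promoter also holds an E-box, not marked here.
Calr: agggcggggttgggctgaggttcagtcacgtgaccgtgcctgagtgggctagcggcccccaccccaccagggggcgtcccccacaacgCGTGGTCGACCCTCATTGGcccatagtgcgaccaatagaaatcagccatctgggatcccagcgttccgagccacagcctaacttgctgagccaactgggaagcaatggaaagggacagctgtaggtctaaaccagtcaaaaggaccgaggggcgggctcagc
Derl3: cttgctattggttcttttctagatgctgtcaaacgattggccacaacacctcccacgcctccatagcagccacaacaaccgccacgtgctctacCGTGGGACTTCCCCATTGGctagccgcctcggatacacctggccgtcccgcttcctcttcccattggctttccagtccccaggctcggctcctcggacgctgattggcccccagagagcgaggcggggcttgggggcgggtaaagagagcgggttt

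Subunits of the respiratory chain are encoded in part by the mitochondrial genome and in part by nuclear genes. Of 13 protein genes of the mitochondrial genome 7 had enough counts to be tested and 3 were at 0 in all 6 livers. Those with too few counts were mt-Nd3, mt-Nd4l, mt-Co2, mt-Co3, mt-Atp6 and mt-Atp8. Whether their reads were lost in counting was not tested, so the results speak for the tested genes and not for all mitochondrial transcripts. Of the 7, 6 rose (median 1.23). mt-Nd4 and mt-Nd1, subunits of complex I, were at 2732, 2667 and 1739 CPM and at 3089, 3338 and 2330 CPM in irradiated livers. In controls they were at 650, 777 and 1595 CPM and at 1093, 1250 and 2182 CPM. Control replicate 3 lay close to irradiated replicate 3 in both genes and overlapped it for mt-Cytb, at 4560, 4703 and 2608 against 1171, 1264 and 2617 CPM (adjusted p = 0.0134). mt-Nd6, on the other strand and sharing 14 of its 519 bases with mt-Nd5, rose from 115, 103 and 180 to 417, 410 and 283 CPM (adjusted p = 0.00317). mt-Co1, the most abundant of them, did not pass (log2 fold change 0.23, adjusted p = 0.721), and its sign turned to -0.08 after adjustment for the Gm26917 level. After that adjustment 0 of the 7 passed, with a median of 0.79. Only mt-Nd6 passed without control replicate 1, control replicate 2, irradiated replicate 1 or irradiated replicate 2.

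Nuclear genes of complex I included 4 that fell of 36 and those of complexes II to V 3 that fell of 38, with 0 that rose (medians -0.19 and -0.35). These shares of 11.1% and 7.89% compare with 3.11% of all genes tested that fell. In the most abundant class of protein-coding genes, described below, 9.15% fell. Atp5c1, a subunit of the ATP synthase, was at 51.4, 75.2 and 52.5 CPM in irradiated livers and at 119, 129 and 69.3 CPM in controls, with control replicate 3 inside the irradiated range (adjusted p = 0.00742). Without control replicate 3 the counts were 10 and 20, without irradiated replicate 2 they were 2 and 6, and without any 1 of the other libraries both were 0. After adjustment for the Gm26917 level both medians turned above 0, to 0.08 and 0.05. Of 34 proteasome genes Psma5 and Psma6 fell, and of 78 cytosolic ribosomal protein genes Rpl23a rose, at 15.4, 13.7 and 13.4 against 12.5, 6.27 and 4.98 CPM. The proteasome count was 13 without control replicate 3, 1 without irradiated replicate 2 and 0 without any 1 of the others. Rpl23a passed without control replicate 1 alone.

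Among genes for metals, Slc30a10, which exports manganese from hepatocytes into bile, had one of the smallest p-values of the comparison. It was at 45.9, 51.8 and 65.5 CPM in irradiated livers and at 19.5, 22.2 and 13.9 CPM in controls (log2 fold change 1.55 ± 0.17, adjusted p = 3.58e-06). The arms did not overlap, and its control mean of 18.5 CPM lay below the 56.1 to 92.1 CPM of the other months. Slc40a1, the iron exporter ferroportin, fell from 188, 161 and 128 to 84.2, 103 and 92.7 CPM (adjusted p = 0.0192). Of 31 metal genes 1 rose and 2 fell, and without control replicate 3 the numbers were 1 and 6. Slc30a10 passed whichever library was left out, while Slc40a1 did not without control replicates 1 or 2 or irradiated replicates 1 or 3. Among regulators of the hepatocyte, the lipid-sensing receptor gene Ppard rose from 6.27, 4.54 and 6.11 to 11, 10 and 15.1 CPM (adjusted p = 0.00691). Stat5b, which carries growth hormone signals, rose from 64.8, 60.7 and 50.7 to 82.3, 83.7 and 84.1 CPM (adjusted p = 0.017). Ppard lost the call without control replicate 2, Stat5b without control replicate 3, and both without irradiated replicate 3.

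Inflammatory genes were high in 1 irradiated liver. Of 30 acute phase genes 0 passed, 5 had an unadjusted p under 0.05, and DESeq2 and limma voom called 2 and 0. Their median log2 fold change was 0.76, and 0.05 without irradiated replicate 3. Saa3, a serum amyloid gene, was at 16.7, 2.76 and 156 CPM in irradiated livers and at 4.27, 2.36 and 1.69 CPM in controls. Lcn2, an iron-scavenging protein of liver inflammation and neutrophils, was at 60.3, 3.14 and 645 against 36.2, 3.54 and 1.97 CPM. Irradiated replicate 3 stood far above the other 5 livers in both, and irradiated replicate 2 lay within the control range. The summed level of the acute phase list was 36190, 41470 and 89040 CPM in irradiated livers and 45300, 34760 and 24880 CPM in controls. Of 36 interferon-stimulated genes 0 passed, 3 had an unadjusted p under 0.05, and DESeq2 and limma voom called 1 each. Isg15, an antiviral ubiquitin-like protein gene, had the smallest p of that list (log2 fold change 0.79, adjusted p = 0.0864). Gbp7 and Iigp1, of 19 interferon-inducible GTPase genes, fell by 0.66 and 0.74. Gbp7 lost the call without control replicate 2 or irradiated replicate 1, and Iigp1 in all cases but that without control replicate 3. Of 22 antigen presentation genes 0 passed with edgeR, DESeq2 or limma voom, and 0 had an unadjusted p under 0.05.

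Few markers of the cell types a slice can hold passed. Albumin (Alb), the defining hepatocyte product, was at 27690, 33130 and 15770 CPM in irradiated livers and at 34090, 41910 and 31330 CPM in controls. Of 12 hepatocyte markers 1 fell and 0 rose, and 0 passed without control replicates 1 or 2 or irradiated replicates 1 or 3. Summed hepatocyte markers ran from 38520 to 66010 CPM in irradiated livers and from 56660 to 79110 CPM in controls, lowest in irradiated replicate 3. None of 18 endothelial, 19 stellate, 19 macrophage or 19 lymphocyte markers passed, and 1, 4, 0 and 2 of them had an unadjusted p under 0.05. DESeq2 called 0, 1, 0 and 0 of them, and limma voom 0, 2, 0 and 1. Their summed levels ran from 747 to 835 against 646 to 813 CPM for endothelium, and from 438 to 496 against 396 to 448 CPM for stellate cells. For macrophages they ran from 353 to 599 against 281 to 516 CPM, and for lymphocytes from 49.5 to 62.7 against 55.5 to 64.9 CPM. The neutrophil list sum was 70.7, 11.4 and 683 CPM against 46.4, 13.8 and 9.68 CPM and 0 of 12 such genes had an unadjusted p under 0.05. Lcn2, which hepatocytes also make, held most of the sum in irradiated replicate 3. Of 10 cholangiocyte markers Sox9, a biliary transcription factor, rose from 2.80, 3.09 and 1.32 to 7.37, 6.20 and 9.93 CPM (adjusted p = 0.0406), a call that held only without irradiated replicate 2. Of 10 globin and erythroid, 6 mesothelial, 6 adipocyte and 2 pancreatic acinar genes tested 0 passed with any of the 3 tools, and 1 adipocyte gene had an unadjusted p under 0.05. No listed marker of these cell types was at 0 in all 6 livers. The part of cell makeup in the differences above was not tested.

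Of 36 nuclear receptor genes 3 rose and 5 fell, or 22.2% against 4.60% of all genes, with a median of -0.18. Of 19 liver transcription factor genes 1 rose and 1 fell. Of 28 growth hormone axis genes 2 rose, and of 24 pericentral and 23 periportal genes 3 fell and 1 rose. Gldc, a periportal enzyme of glycine breakdown, was the one that rose, by a log2 fold change of 0.85. Slc1a2, a glutamate transporter of the pericentral zone, fell by 1.00. Of 27 plasma protein and apolipoprotein genes Apoc2 rose and Serpina6 fell, and of 40 complement and coagulation genes Klkb1 fell. Of 30 immediate early genes Dusp1 rose, and of 27 histone genes Hist2h4, whose near-identical copies may share reads. Of 20 temperature-responsive genes 0 passed, 2 had an unadjusted p under 0.05, and DESeq2 and limma voom called 0 and 1. Of 21 nuclear long noncoding RNAs 0 passed, 5 had an unadjusted p under 0.05, and DESeq2 and limma voom called 2 and 1. Without control replicate 3 the pericentral and periportal counts were both 7, and without control replicate 2 the nuclear receptor count was 3.

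By biotype, small nucleolar RNAs (snoRNAs), which guide chemical modification of ribosomal and spliceosomal RNA, stood out. Of 98 tested 19 rose and 0 fell, 19.4% against 1.49% of all features, and 71 had a log2 fold change above 0 (median 0.65). Gm25835, inside Eif4a1 (GRCm38, chromosome 11, 69668852 to 69668995), was at 45.0, 97.3 and 60.6 CPM in irradiated livers and at 28.0, 7.72 and 11.3 CPM in controls. Gm25117, inside Nap1l1 (chromosome 10, 111481493 to 111481636), was at 16, 24.4 and 17 against 6.80, 2.36 and 3.10 CPM (log2 fold change 2.19 ± 0.34, adjusted p = 0.000276). Snord15a, inside the ribosomal protein gene Rps3, was at 14.3, 33.9 and 18.3 against 10.8, 2.91 and 4.51 CPM. Control replicate 1 was the highest control for all 19, and in 15 of them every irradiated liver lay above it. The 19 annotated RNAs are 104 to 184 bases long and 16 lie inside a longer gene on the same strand. Of 15 such host genes 14 were tested, 0 passed, and their median log2 fold change was -0.20. A read on a snoRNA may come from the unspliced host RNA, which these counts do not separate. The count was 2 without control replicate 2, 7 and 9 without irradiated replicates 2 and 3, 12 without control replicate 3, and 2 after adjustment for the Gm26917 level, with the median above 0 in every setting.

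**Figure D2:**
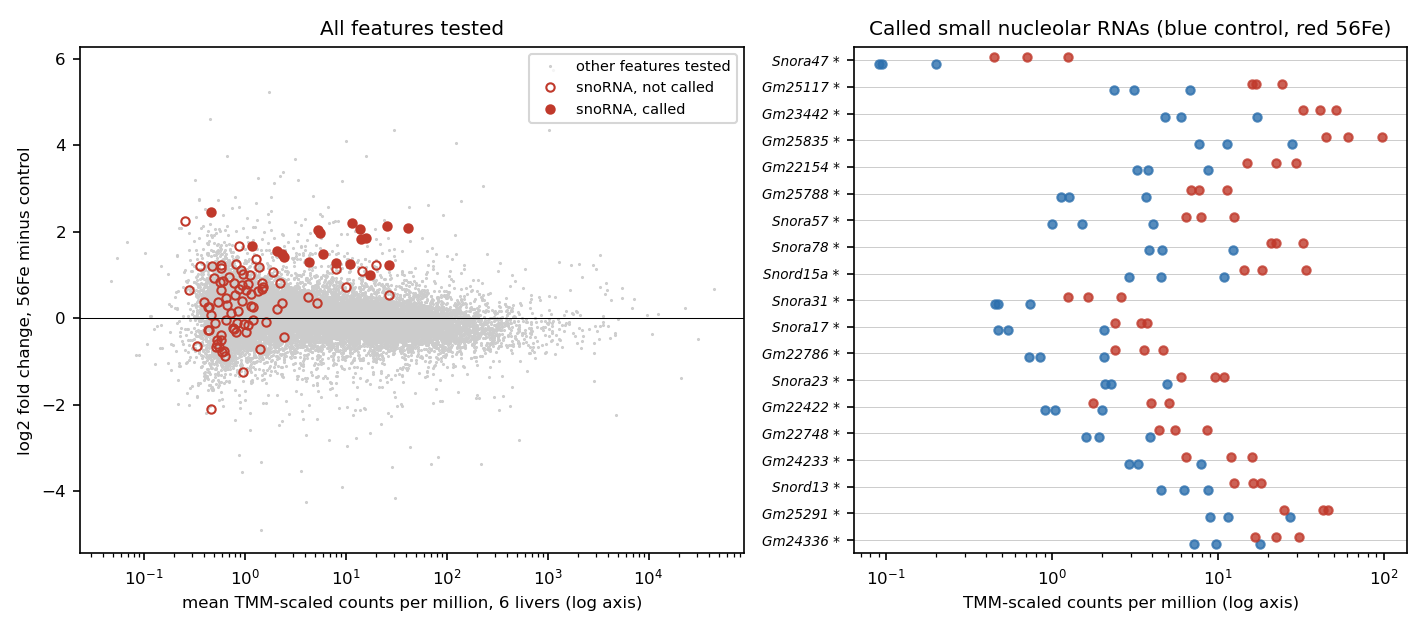
Left, log2 fold change (56Fe minus control) against mean level (logarithmic) for all features tested, with snoRNAs in red and filled where they passed; right, the 19 snoRNAs that passed with 1 point per liver, blue control and red 56Fe, on a logarithmic axis. Filled points all lie above 0, and on the right control points overlap irradiated ones only in the 4 rows where control replicate 1 reached the lowest irradiated liver.

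Long noncoding RNAs (annotated lincRNAs) had 15 higher and 6 lower of 714, against 219 higher and 581 lower of 14910 protein-coding genes. Gm31508 rose from 2.73, 1.54 and 1.13 to 13.1, 18 and 19.5 CPM (adjusted p = 1.14e-05) and Gm30301 from 1.47, 1.64 and 2.26 to 7.99, 8.22 and 12.2 CPM. Gm30301 shares 90 of its 652 exonic bases with 5033403H07Rik on the opposite strand, which rose as well, and reads there cannot be told apart without the strand. The arms of Gm31508 and Gm30301 did not overlap. Gm45819, a transcript model of unsettled status that ends just before Wee1, was at 0.18, 0.07 and 0.00 against 3.40, 3.36 and 1.69 CPM. Gm13613, antisense to the bile salt pump gene Abcb11, was at 9.76, 10.8 and 13.7 against 3.20, 1.82 and 2.35 CPM, with 136 of its 1444 exonic bases shared and the same caution on strand.

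The make-up of the libraries varied between livers, also within each arm. Gm26917, an annotated lincRNA (GRCm38, chromosome 17, 39843013 to 39846341), took 7.57%, 6.36% and 6.39% of counts in irradiated livers and 3.17%, 3.04% and 6.09% in controls. Control replicate 3 lay beside the irradiated livers. The exact permutation p was 0.1, the smallest that 3 against 3 livers can give. As a gene it did not pass (log2 fold change 0.67, adjusted p = 0.0736). In the setting without ribosomal RNA features, Gm26917 was left out together with them. Whether its reads stem from ribosomal RNA left after depletion was not tested. snoRNAs and small Cajal body RNAs together took 0.101%, 0.127% and 0.110% against 0.0722%, 0.0403% and 0.0629%, also with an exact permutation p of 0.1. Protein genes of the mitochondrial genome took 5.90%, 5.63% and 3.84% against 2.17%, 2.85% and 5.26% (exact permutation p = 0.2), again with control replicate 3 among the irradiated values. Members with too few counts to be tested add little to this share. Mitochondrial ribosomal RNA took 3.22%, 1.09% and 0.704% against 0.578%, 9.57% and 2.31%, so that control replicate 2 alone held most of the control mean. Nuclear protein-coding genes took 77.9%, 82.3% and 83.4% against 89.8%, 80.2% and 81.0% (exact permutation p = 0.7). The irradiated mean was below the control mean by 2.47 percentage points and, without control replicate 1, above it by 0.582. The part of these shares in the gene differences was not tested, but after adjustment for the Gm26917 level 116 genes passed, of which 107 were among the 906, and all 906 kept their sign. Arntl, Npas2, Clock, Per3, Wee1, Coq10b, Por, Cyp7a1, Alas1, Gys2, Elovl3, Slc30a10, Nr3c2 and Atf5 still passed. Cdkn1a, Zbtb16, Usp2, Dbp, Cpt1a, Pnpla2, Cyp2a5, Papss2, Ppp1r3b, Calr and mt-Nd6 did not. Their standard errors were larger in that fit, and the log2 fold change was 3.83 ± 0.91 for Cdkn1a, 2.35 ± 0.55 for Zbtb16, -3.18 ± 0.76 for Dbp, 1.98 ± 0.57 for Ppp1r3b and 0.70 ± 0.25 for Calr. It was nearer to 0 than before for Cpt1a, at -0.66 ± 0.20, and for Papss2, at -0.51 ± 0.19.

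**Figure D3:**
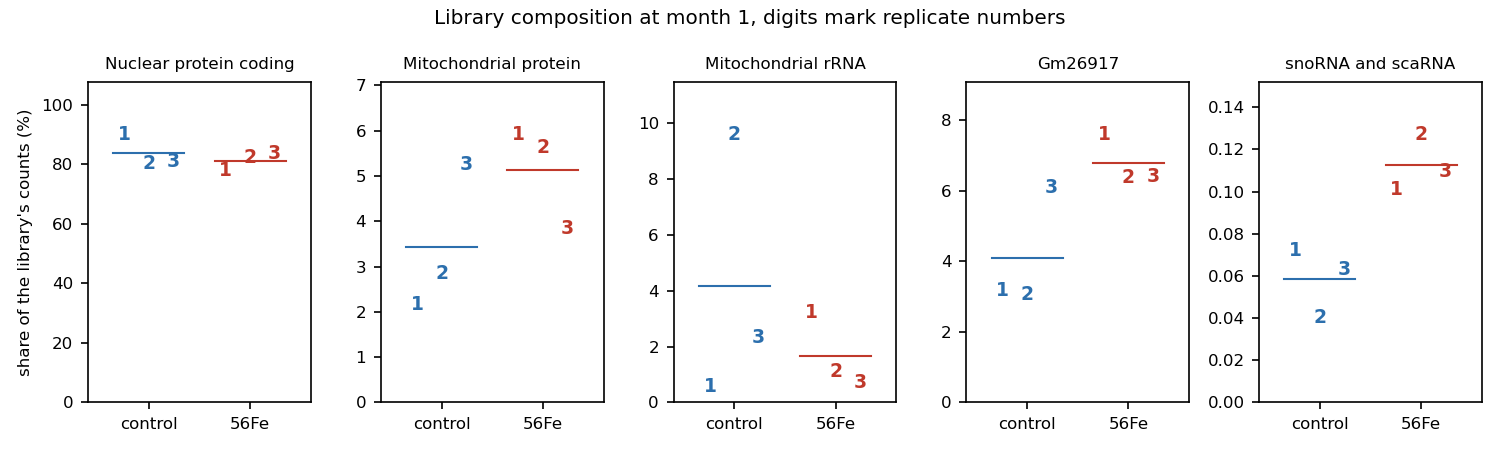
Share of each library's counts (vertical axes, percent, from 0) taken by nuclear protein-coding genes, protein genes and ribosomal RNA of the mitochondrial genome, Gm26917, and snoRNAs with scaRNAs, for control (blue) and 56Fe (red) livers; digits are replicate numbers and lines are means. Control replicate 3 lies near the irradiated livers for Gm26917 at 6.09% and for mitochondrial protein genes at 5.26%.

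Called protein-coding genes were unevenly spread over base composition. Genes were split into 5 classes of like size. In the class with the lowest exonic GC content 6.57% fell and 0.738% rose, and in the highest 1.37% fell and 2.28% rose. The medians went from -0.15 to 0.07 between these classes. Calls in both directions grew with level, from 0.067% lower and 0.235% higher in the least abundant class to 9.15% and 2.15% in the most abundant one, while exonic length showed a smaller range of 2.68% to 4.59%. With offsets that removed the GC trend of each library, 658 genes passed, of which 634 were among the 906. The numbers in the lowest GC class then went from 196 to 94 lower, with 22 higher as before. In the highest they went from 68 higher and 41 lower to 37 and 56, and its median turned to -0.01. Without control replicate 2 the lowest GC class had 30 lower and the highest 26 higher, and without control replicate 3 the highest had 67 higher and 130 lower.

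**Figure D4:**
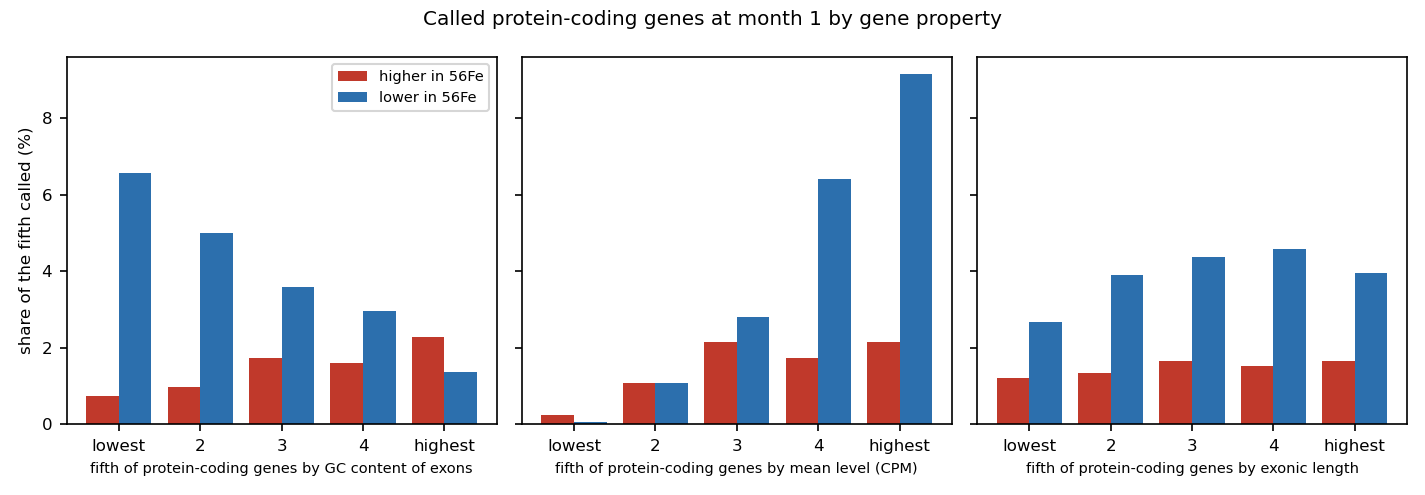
Share of protein-coding genes called higher (red) or lower (blue) in 56Fe livers (vertical axis, percent) in 5 classes of exonic GC content, mean level and exonic length. The share called lower falls from 6.57% to 1.37% with GC content and rises from 0.067% to 9.15% with level, where the share called higher goes from 0.235% to 2.15%.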

How the data were processed

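RNA-seq libraries of 30 mouse livers were read from count tables deposited by the authors, whole-number counts per gene, with STAR 2.5.3a named in the submitters' processing notes, on GRCm38 with Gencode M14 genes and STAR's gene counts per the series' design text. Which strand column was deposited is not given in the sources used here. All 30 libraries (3 per group) were fitted with edgeR 4.0.16 in R 4.3.3 (TMM factors, filterByExpr with a minimum count of 10 and total of 15, robust quasi-likelihood test, 1 coefficient per group), and irradiated minus control at month 1 was tested with Benjamini-Hochberg adjustment at 0.05 over 19685 genes. Shares of counts were compared by two-sided exact permutation. Alternatives included DESeq2 1.42.0 and limma 3.58.1 voom. On simulated counts for month 1, over 18260 genes, 65% of 2-fold and 88% of 4-fold changes were recovered, with 5 false among 158 calls. The simulation changed only genes above 1 CPM and otherwise gave each gene the same mean in all groups. It held no differences between months, no shift in composition and no liver that deviated over many genes. Its share of false calls therefore does not carry over to the real counts.

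The labels call the 3 livers of a group biological replicates. Total counts of the 6 libraries limit precision for genes near or below 1 CPM. The comparison and gene lists were chosen with earlier results of these data known. Named genes were the 10 highest and 10 lowest by fold among genes of at least 1 CPM without overlap, up to 4 called genes of smallest p per list (or the smallest p where none was called), Cdkn1a, Mdm2, Phlda3 and Eda2r, 2 per noncoding biotype and the 10 most abundant features. Values of Nfil3, Cry1, Cry2, Per1, Per2, Nr1d1, Tef, Hlf, Hsd11b1, Nr3c1, Nr0b2, Cyp3a11, Hspa5, Gm25835 and Snord15a, and the promoters printed, were chosen after the values were seen. Promoter sequences are from RefSeq (GRCm38.p6). Values of some list members are not reported here.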

Additional observations from a re-analysis of the deposited data

Results flagged for a closer look

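For the named results below the effect at month 1 differed from the mean effect of months 2, 4, 9 and 12, by a test of that difference in the same edgeR fit with Benjamini-Hochberg adjusted p under 0.05. The values are the log2 fold change at month 1 minus the mean log2 fold change of the other months, so that a positive value means a more positive effect at month 1. Most of the named genes were chosen by their fold or p at month 1. That effect is part of the difference tested, so passing here is in part built in and gives no separate support. None of these differences was tested for its source.

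Among clock genes and their outputs, the difference was 3.528 for Arntl, 2.689 for Npas2, 0.962 for Clock and 0.945 for Leo1. It was -1.097 for Nr1d2, -2.862 for Per3, -3.623 for Wee1, -2.018 for Coq10b, -1.022 for Por and -1.584 for Nampt, with adjusted p-values from 6.78e-05 to 0.0132 in this group. In stress, hormone and growth regulators it was 4.006 for Cdkn1a, 2.793 for Zbtb16, 1.248 for Tsc22d3 and -1.246 for Nr3c2. It was 0.521 for Stat5b, 1.161 for Ppard and -0.604 for Gbp7, with adjusted p-values from 1.2e-05 to 0.0473 in this group. For endoplasmic reticulum, stress response and ribosomal or histone genes it was 3.583 for Derl3 and 0.906 for Calr. It was 0.970 for Atf5, 1.033 for Rpl23a and 1.028 for Hist2h4, with adjusted p-values from 0.00488 to 0.0384 in this group. Among lipid, bile acid and glucose genes it was 2.890 for Elovl3, 3.419 for Pitx3, 1.740 for Chka and -0.718 for Cpt1a. It was -0.614 for Pnpla2, -1.221 for Stard4, -3.474 for Cyp7a1, -1.504 for Gys2 and 2.149 for Ppp1r3b, with adjusted p-values from 0.000791 to 0.0484 in this group. For haem, conjugation, metal, zonation and endothelial genes it came to -3.241 for Alas1, -1.930 for Cyp2a5, -4.529 for Ugt1a8 and -0.743 for Papss2. It was 1.618 for Slc30a10, -0.868 for Slc40a1, -1.004 for Slc1a2, 0.829 for Gldc and 0.566 for Gpr182, with adjusted p-values from 1.2e-05 to 0.0396 in this group. In noncoding or predicted features it came to 2.175 for Gm31508, 2.162 for Gm30301, 1.179 for 5033403H07Rik and 1.782 for Gm25117. It was 0.924 for Gm43658, -4.369 for Gm45819, -1.793 for Gm14097, -2.552 for Gm17971 and -1.974 for Tpt1-ps3, with adjusted p-values from 0.00126 to 0.0484 in this group. Lrfn3, a gene outside these groups, had a difference of 2.104 with an adjusted p of 0.00102.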

How the results depend on the processing

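Every one of the 906 genes kept its direction in each setting where it was measured, but the counts moved. Higher and lower genes numbered 296 and 553 with RLE factors, 411 and 307 (718 in all) with upper quartile factors, 313 and 415 with TMM factors computed without ribosomal RNA features, 210 and 430 (640) without the filter, 372 and 400 (772) with a stricter filter, and 228 and 430 (658) with GC offsets. They numbered 251 and 236 (487) with the 6 libraries alone, 507 and 494 (1001) with months 1 and 2, 363 and 854 (1217) with DESeq2, 497 and 1550 (2047) with limma voom, and 48 and 68 (116) after adjustment for the Gm26917 level. Genes whose effect differed from the other months numbered 667 with DESeq2 and 908 with limma voom. Leaving out 1 library gave 249 (control replicate 2) to 1874 (control replicate 3) genes, 130 to 299 higher, 119 to 1575 lower and 133 to 717 differing from other months.

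At month 1 same-numbered livers did not pair: their deviations correlated at -0.384, 0.108 and -0.157, and 1 of 3 correlated best with its own number. Such correlations ran from -0.035 to 0.021 at month 2 and from 0.075 to 0.114 at month 4. They ran from -0.011 to 0.198 at month 9 and from 0.186 to 0.346 at month 12. The replicate block gave 1224 genes (334 higher, 890 lower) and 624 differing from other months.

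Signs turned for genes that had not passed, and the cause was not tested. With the Gm26917 covariate the log2 fold changes were -0.001 for Gm26917, 0.150 for Eda2r, -0.084 for mt-Co1, 0.089 for Apob and -0.100 for Serpina3k. It was -0.012 for Apoe with GC offsets and -0.015 for C3 with limma voom. With 1 library left out Phlda3 ranged from -0.096 to 0.877, Eda2r from -0.657 to 0.154, mt-Rnr2 from -2.183 to 0.203, Serpina3k from -0.103 to 0.263 and C3 from -0.064 to 0.474. Of the 19685 tested genes, those near 1 CPM are limited by depth.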
